A study of Mus musculus with 12 samples.

Results

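Laminins and their partner proteins form the basement membranes of nerve and vessel, and the messenger RNA of 10 of their genes was followed here: the laminin α chains Lama1, Lama2, Lama4 and Lama5, the β chains Lamb1 and Lamb2, the γ chain Lamc1, the nidogens Nid1 and Nid2, and Hspg2, which codes for perlecan. All 10 have a probe set on the Affymetrix mouse array, and they are 10 of 18193 genes with a probe set of 1 gene symbol. Each gene was read from its probe set with the highest mean over 12 arrays, a rule that uses no difference between groups. RNA was taken of CD1 mice from the sympathetic ganglion of the upper neck, the superior cervical ganglion (SCG). The study asked how the spatial form of a culture changes nerve cells, with freshly dissected ganglia as the stand-in for the living animal. Of the 3 groups, 4 arrays hold SCG cells grown on a flat surface (2D), 4 hold SCG cells grown in porous polystyrene scaffolds (3D), and 4 hold SCG tissue with no time in culture. The 2D and 3D cells had been freed with collagenase, plated at about a pair of ganglia to a dish or scaffold on a coat of type I collagen, and kept for 5 days in medium with serum and nerve growth factor. The labels give an age of 21 days for every sample where the methods name neonatal animals, and they name a polystyrene dish for 2D where the methods name glass bottom dishes. The replicates are labelled as biological, 4 in each group, and neither culture was sorted for neurons.

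A laminin is a cross-shaped protein built from an α, a β and a γ chain, and the α chain decides which receptors it binds. Laminins polymerise beneath cells, nidogens link this net to collagen IV, and perlecan, a large heparan sulphate proteoglycan, ties both to the cell surface. In peripheral nerve, Schwann cells and satellite glia lay down a basement membrane with α2 and α4 laminins on their outer face, while vessels carry α4 and α5 laminins.

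Values are log2 expression levels made with the RMA algorithm, so that a difference of 1 is a change by a factor of 2, and no detection call comes with them. The level of 1 gene is therefore not set against that of another gene. Pairs of groups were tested with limma. P-values were adjusted by Benjamini and Hochberg's method across 45037 probe sets, and a gene passed when its adjusted p was under 0.05. The arrays read all cells of a sample together, so that fewer cells of a type and less RNA per cell cannot be told apart. Tissue replicates 2 and 3 stood apart. The Gapdh control probe sets at the 3' end exceeded those at the 5' end by 3.45 and 3.05 on these arrays. On tissue replicates 1 and 4 they did so by 1.1 and 1, and on the 8 culture arrays by 0.36 to 1.27. For the actin control the excess was 3.55 and 4.21 on tissue replicates 2 and 3, and 1.63 and 2.21 on replicates 1 and 4. On the culture arrays it ran from 1.12 to 1.89, so that tissue replicate 4 lay above them all. The main tissue results are therefore also given without replicates 2 and 3. Their part in a result was not tested.

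Between 3D and 2D none of the 10 genes passed the test, and Lama4 and Nid1 were lower in SCG tissue than in both cultures. The shares of the 10 genes called lower in tissue were near those of all genes against 2D. In 3D against 2D, 0 of 10 were higher, where 0.0165% of all genes were, and 0 of 10 were lower, where 0% of all genes were. At an unadjusted p under 0.05, limma found 3 of the 10, beside 13.1% of all genes. In tissue against 2D, 0 of 10 were higher (9.87% of all genes) and 2 were lower (14.3% of all genes), namely Lama4 and Nid1. In tissue against 3D, 0 of 10 were higher (15.5% of all genes) and 4 were lower (20.1% of all genes), namely Lama4, Lamb2, Nid1 and Hspg2. At an unadjusted p under 0.05 limma found 6 of the 10 against 2D, beside 40.9% of all genes, and 5 against 3D, beside 47.7%. The median log2 difference of the 10 genes was 0.01 in 3D against 2D, -1.0 in tissue against 2D and -0.66 in tissue against 3D, beside 0.01, 0.03 and 0.03 over all genes. Both tissue comparisons use the same tissue arrays. Without tissue replicates 2 and 3 the median was -0.44 against 2D and -0.47 against 3D. Then 0 of 10 were higher (10.1% of all genes) and 2 lower (12.3%) against 2D, and 1 was higher (22.7%) and 6 lower (24.6%) against 3D.

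**Figure D1:**
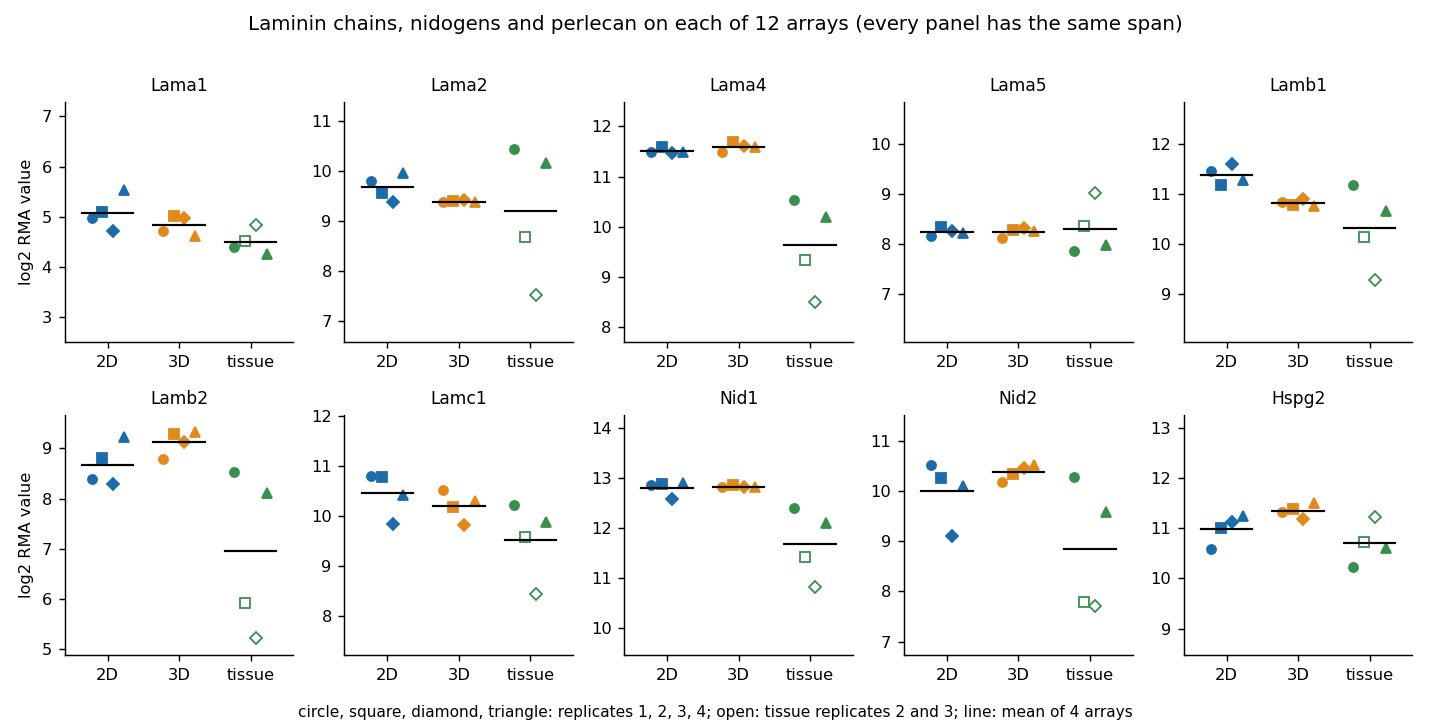
Log2 expression level of the 10 genes (vertical axes) on each of 12 arrays in the 2D, 3D and tissue groups (horizontal axes); points are arrays, lines are means of 4, and every panel covers the same span. On the tissue arrays Lama4 lies below all 8 culture arrays, and tissue replicates 2 and 3, drawn open, lie lowest for 7 of the 10 genes.

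Lama4, the α chain of laminins around vessels and glia, was lower in tissue than in either culture and passed under each of the 21 alternatives run for either comparison. It read 11.48, 11.58, 11.46 and 11.49 on 2D replicates 1 to 4, and 11.49, 11.68, 11.61 and 11.59 on 3D replicates 1 to 4. On tissue replicates 1 to 4 it read 10.53, 9.33, 8.51 and 10.20. The culture arrays spanned little and overlapped with each other, and every tissue array was below every culture array. The mean was 11.50 ± 0.05 (SD, n = 4) in 2D, 11.59 ± 0.08 in 3D and 9.64 ± 0.91 in tissue. Lama4 was 3.63-fold lower in tissue than in 2D (log2 difference -1.86, with a standard error, SE, of 0.39, adjusted p = 0.0119 from limma) and 3.86-fold lower than in 3D (-1.95, SE 0.39, adjusted p = 0.00546). With these 2 tissue arrays left out it was 2.20-fold lower than in 2D (adjusted p = 0.00300) and 2.34-fold lower than in 3D (adjusted p = 1.14e-04).

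Lama2, the α chain of merosin, the laminin of muscle and Schwann cell basement membranes, split the tissue arrays. It read 9.80, 9.56, 9.38 and 9.95 in 2D, and 9.37, 9.39, 9.41 and 9.38 in 3D, the latter within 0.04 of each other. In tissue it read 10.43, 8.69, 7.53 and 10.16. Tissue replicates 1 and 4 were above all culture arrays, and replicates 2 and 3 were below them all. Over 4 tissue arrays Lama2 stood at -0.47 from 2D (SE 0.57, adjusted p = 0.549 from limma) and -0.19 from 3D (SE 0.56, adjusted p = 0.812). On tissue replicates 1 and 4 alone Lama2 was 1.88-fold higher in tissue than in 3D (log2 difference 0.91, SE 0.10, adjusted p = 2.55e-04). The difference from 2D was then 0.62 (SE 0.19, adjusted p = 0.0610). The direction of the tissue difference of Lama2 thus turns on these arrays.

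Lama5, the α chain of laminin around mature vessels and epithelia, read alike in both cultures, from 8.16 to 8.34 in 2D and from 8.12 to 8.32 in 3D. The log2 difference of 3D from 2D was 0.00, with a 95% confidence interval from -0.17 to 0.17. In tissue Lama5 read 7.87, 8.36, 9.01 and 7.99, so that replicates 1 and 4 were below all culture arrays and replicates 2 and 3 were above them all. Over 4 tissue arrays the difference was 0.06 against either culture (SE 0.24, adjusted p of 0.860 against 2D and 0.851 against 3D, limma). Without tissue replicates 2 and 3 it was -0.32 against either culture, with an adjusted p of 0.0886 against 2D and of 0.035 against 3D. Lama1, the α chain of the first laminin of the embryo, stayed below a log2 level of 6 on every array, from 4.72 to 5.54 in 2D, from 4.62 to 5.01 in 3D and from 4.25 to 4.84 in tissue. At such a level RMA values can be mostly background. Its difference of tissue from 2D was -0.58 (SE 0.21, adjusted p = 0.0754), and without tissue replicates 2 and 3 its difference from 3D was -0.51 (SE 0.14, adjusted p = 0.0175). Leaving out tissue replicate 3 alone brought Lama1 past the threshold in both comparisons (adjusted p = 0.0407 with 2D and 0.0333 with 3D).

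Of the 10 genes, Lamb1 had the smallest adjusted p between the culture forms. Lamb1, the β chain of most early laminins, read 11.47, 11.19, 11.61 and 11.28 in 2D and 10.85, 10.79, 10.91 and 10.76 in 3D. All 4 arrays of 3D were below all 4 of 2D, a log2 difference of -0.56 (SE 0.10, 95% confidence interval from -0.79 to -0.33). The adjusted p over all probe sets was 0.149 with limma (unadjusted p = 4.43e-04), which does not pass. Lamb1 passed with array quality weights (adjusted p = 0.036) and by the methods' t-test with no adjustment. It also passed without 2D replicate 4 and 3D replicate 1 (adjusted p = 0.0435), an omission added after seeing the data. In tissue Lamb1 read 11.18, 10.14, 9.28 and 10.67, below every 2D array and on both sides of the 3D arrays. Its log2 difference from 2D was -1.07 (SE 0.36, adjusted p = 0.0610) over 4 tissue arrays and -0.46 (SE 0.19, adjusted p = 0.136) without replicates 2 and 3. Leaving out tissue replicate 1 brought Lamb1 past the threshold against 2D (adjusted p = 0.0203). With all 4 tissue arrays a second, dimmer probe set of Lamb1 was lower than in 2D (-1.785, adjusted p = 0.0250).

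Lamb2, the β chain of mature laminins at synapses, vessels and the kidney filter, had a difference of the other sign between the cultures, which did not pass. It read 8.39, 8.81, 8.29 and 9.22 in 2D and 8.80, 9.28, 9.13 and 9.33 in 3D, 2 overlapping sets with a log2 difference of 0.46 (SE 0.21, adjusted p = 0.458 from limma). Without 2D replicate 4 and 3D replicate 1, an omission added after seeing the data, Lamb2 passed at 0.75 (adjusted p = 0.0386). These were the highest 2D and the lowest 3D array for Lamb2, so that leaving them out widens the difference by construction. Tissue read 8.53, 5.93, 5.22 and 8.12. All 4 tissue values were below all 3D values, and replicates 2 and 3 were far below the other arrays. Lamb2 was 4.55-fold lower in tissue than in 3D (log2 difference -2.19, SE 0.68, adjusted p = 0.0363) and 1.75-fold lower without replicates 2 and 3 (adjusted p = 0.00665). It no longer passed against 3D without tissue replicate 2 (adjusted p = 0.104) and without any 1 of the 3D arrays (0.0669 to 0.0880). Against 2D the difference was -1.73 (SE 0.69, adjusted p = 0.0992), with 1 tissue array within the 2D range. It passed without tissue replicate 1 (adjusted p = 0.0356), and without replicates 2 and 3 it shrank to -0.35 (adjusted p = 0.423).

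Lamc1, the γ chain shared by nearly all laminins outside the skin, gave no difference that passed in any of the 3 comparisons. It read 10.79, 10.78, 9.84 and 10.41 in 2D, 10.52, 10.17, 9.82 and 10.29 in 3D, and 10.22, 9.58, 8.45 and 9.87 in tissue. Replicate 3 was the lowest array of each of the 3 groups. The log2 difference was -0.26 in 3D against 2D (95% confidence interval from -0.78 to 0.27), -0.93 in tissue against 2D (SE 0.38, adjusted p = 0.105 from limma) and -0.67 in tissue against 3D (SE 0.35, adjusted p = 0.163). With replicates 2 and 3 of tissue left out the differences were -0.41 (adjusted p = 0.361) and -0.16 (adjusted p = 0.558). With the replicate number as a block Lamc1 passed in tissue against 2D (adjusted p = 0.0294), and a second, dimmer probe set was lower in tissue than in 3D (-1.75, adjusted p = 0.0364, and -0.68, adjusted p = 0.0392, without replicates 2 and 3).

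Nid1, the main nidogen, was lower in tissue than in both cultures. It read 12.86, 12.87, 12.58 and 12.89 in 2D and 12.82, 12.85, 12.81 and 12.81 in 3D. Tissue read 12.39, 11.43, 10.83 and 12.10, below all culture arrays without overlap. Nid1 was 2.16-fold lower in tissue than in 2D (log2 difference -1.11, SE 0.31, adjusted p = 0.0356 from limma) and 2.20-fold lower than in 3D (-1.14, SE 0.30, adjusted p = 0.0207). On tissue replicates 1 and 4 alone it was 1.47-fold lower than in 2D (adjusted p = 0.0417) and 1.49-fold lower than in 3D (adjusted p = 0.00289). Between 3D and 2D the difference was 0.02, with a 95% confidence interval from -0.17 to 0.22. Against 2D Nid1 no longer passed without tissue replicate 2 (adjusted p = 0.102) or any 1 of the 2D arrays (0.0572 to 0.0888), and against 3D without tissue replicate 2 (0.0627) or any 1 of the 3D arrays (0.0513 to 0.0555).

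Nid2, the second nidogen, varied more between arrays of 1 group. It read 10.53, 10.27, 9.11 and 10.10 in 2D and 10.18, 10.35, 10.47 and 10.52 in 3D. In tissue, replicate 1 read 10.28, within the range of the cultures, while replicates 2, 3 and 4 read 7.79, 7.72 and 9.59. Tissue Nid2 stood at -1.16 from 2D (SE 0.60, adjusted p = 0.174 from limma) and -1.54 from 3D (SE 0.54, adjusted p = 0.0562). Without tissue replicates 2 and 3 it was -0.07 (adjusted p = 0.925) and -0.45 (adjusted p = 0.0946). Nid2 passed against 3D when tissue replicate 1 (adjusted p = 0.00929) or tissue replicate 4 (adjusted p = 0.0397) was left out.

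By the probe set that stood for it, Hspg2 was lower in tissue than in 3D and had no difference from 2D that passed. It read 10.59, 11, 11.13 and 11.24 in 2D, 11.33, 11.38, 11.18 and 11.51 in 3D, and 10.22, 10.73, 11.23 and 10.61 in tissue. Tissue replicate 3, the lowest tissue array for Lama4, Lamb2 and Nid1, was the highest one for Hspg2 and the only one to overlap with 3D. Tissue stood at -0.65 from 3D on the log2 scale (SE 0.21, adjusted p = 0.0399 from limma), or 1.57-fold lower, and -0.94 without tissue replicates 2 and 3 (adjusted p = 0.00100). Hspg2 no longer passed with cyclic loess (-0.21, adjusted p = 0.674), with centring on bright probe sets (-0.38, adjusted p = 0.278), with a trended and robust prior (adjusted p = 0.0533), and without tissue replicates 1, 2 or 4 or any 1 of the 3D arrays (0.0642 to 0.110). Between tissue and 2D the difference was -0.29 (SE 0.24, adjusted p = 0.367), -0.57 without tissue replicates 2 and 3 (adjusted p = 0.106) and 0.16 with cyclic loess (adjusted p = 0.776), and that of 3D from 2D 0.36 (SE 0.14, adjusted p = 0.395).

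**Figure D2:**
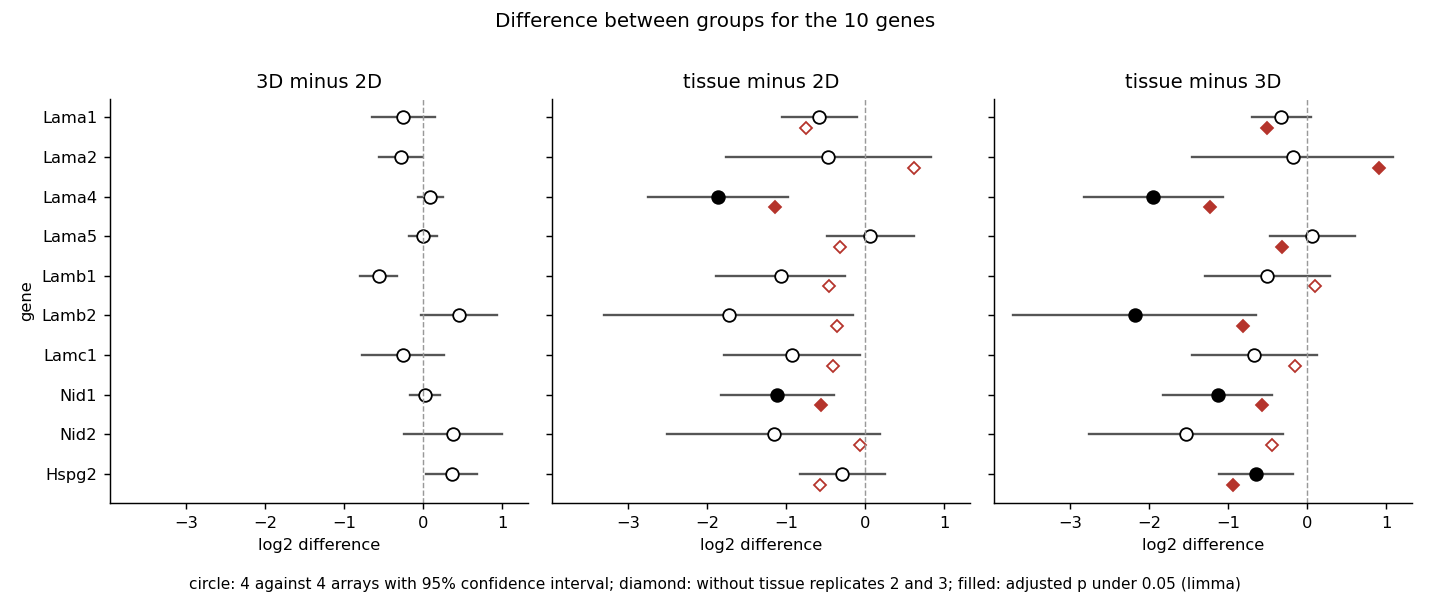
Log2 difference between groups (horizontal axes) for the 10 genes (vertical axis) in the 3 comparisons; circles are 4 against 4 arrays with 95% confidence intervals, diamonds leave out tissue replicates 2 and 3, and filled marks have an adjusted p under 0.05 in limma. Lama4 and Nid1 are filled in both tissue panels with and without these replicates. Without them Lama2 and Lama5 lie on the other side of 0 in both tissue panels, and Lamb1 does so against 3D.

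RMA makes probe values alike in distribution before they are summed, and the deposited probe set values still differed in spread. Their SD over all probe sets was 2.14 and 1.93 on tissue replicates 2 and 3, and from 2.31 to 2.42 on the other arrays. The part of this narrower spread in the tissue differences was not tested. A further scaling shifts the tissue comparisons. Centring each array on its bright probe sets moved the median difference of all genes to 0.31 in both. Of the genes that passed, 40.9% were higher in tissue in the 2D comparison and 43.5% in the 3D comparison as deposited, 61.6% and 60.6% after centring, and 52.3% in each after cyclic loess. Despite that shift Lama4 was lower in tissue than in 2D after centring (-1.58, adjusted p = 0.00545) and with cyclic loess (-1.41, adjusted p = 0.00462). So was Nid1, at -0.83 (adjusted p = 0.0374) and -0.65 (adjusted p = 0.0244). In tissue against 3D both genes and Lamb2 kept their direction and passed under both scalings.

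The bases upstream of the genes are shown for Nid1, Lamb2 and Hspg2, which are 3 of the 4 genes lower in tissue than in 3D. The RefSeq promoter table (build GRCm38.p6) holds 6 of the 10 genes, and Lama4 is not among them. The stretches end before the start site and before the gene's first annotated base, and read 5′ to 3′ along the gene's strand, which is the plus strand for each. Capitals mark GC boxes, the letters GGGCGG on either strand (CCGCCC on the other), a motif bound by Sp1-type factors.
Nid1, chr13:13437352-13437601: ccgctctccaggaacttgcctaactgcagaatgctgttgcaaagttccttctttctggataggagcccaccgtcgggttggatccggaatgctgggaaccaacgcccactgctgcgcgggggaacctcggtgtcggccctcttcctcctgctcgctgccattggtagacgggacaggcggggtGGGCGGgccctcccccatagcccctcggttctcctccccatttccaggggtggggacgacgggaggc
Lamb2, chr9:108479612-108479846: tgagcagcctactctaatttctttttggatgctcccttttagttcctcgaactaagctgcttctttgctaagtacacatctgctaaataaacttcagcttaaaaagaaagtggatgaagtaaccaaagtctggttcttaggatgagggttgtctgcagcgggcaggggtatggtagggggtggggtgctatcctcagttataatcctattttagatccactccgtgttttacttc
Hspg2, chr4:137468553-137468750: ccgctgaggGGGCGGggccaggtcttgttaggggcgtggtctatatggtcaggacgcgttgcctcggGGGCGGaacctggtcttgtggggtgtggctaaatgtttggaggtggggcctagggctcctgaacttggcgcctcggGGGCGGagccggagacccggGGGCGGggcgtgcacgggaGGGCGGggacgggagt
The Hspg2 stretch holds 5 GC boxes, that of Nid1 holds 1 and that of Lamb2 holds 0. In the 250 bases before the start site given in the table, 4 of the 6 genes hold at least 1 GC box, as do 32.7% of the 32851 windows of that length in the table. The share of G and C in these bases was 70% for Hspg2, 64.4% for Nid1 and 43.6% for Lamb2, so that genes with the same call had unlike sequence upstream.

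Pairs of genes were also compared within each array, which asks whether 1 gene changed more than the other. The measure is the log2 level of 1 gene minus that of the other on the same array, and only its change between groups is read. For the 5 pairs and 3 comparisons, 15 exact two-sided permutation tests over the 70 ways to split 8 arrays were run, in which the smallest p that can be reached is 0.0286. After Benjamini-Hochberg adjustment over the 15 tests, 0 passed, and the smallest adjusted p was 0.0612.

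Lamb2 minus Lamb1 was -3.08, -2.38, -3.32 and -2.06 in 2D and -2.05, -1.51, -1.78 and -1.43 in 3D. Every 3D array was above every 2D array, and the change of 1.02 amounts to 2.02-fold more Lamb2 relative to Lamb1 (exact permutation p = 0.0286, adjusted 0.0612). In tissue the difference was -2.65, -4.21, -4.06 and -2.55, below all 3D arrays by 1.67 in the mean (exact permutation p = 0.0286) and by 0.91 without tissue replicates 2 and 3. Against 2D the tissue arrays overlapped. The probe set chosen for a gene bears on this pair: with the mean of all probe sets of each gene the change of 3D from 2D was 0.84 (exact permutation p = 0.0571), and with the probe sets of highest SD it was 0.71 (exact permutation p = 0.171).

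Lama2 minus Lama4 was higher in tissue on all 4 arrays than on any culture array. It was -1.68, -2.02, -2.08 and -1.54 in 2D, -2.12, -2.29, -2.20 and -2.21 in 3D, and -0.10, -0.64, -0.98 and -0.04 in tissue. The change was 1.39 against 2D and 1.77 against 3D (exact permutation p = 0.0286 for each), or 2.62-fold and 3.40-fold more Lama2 relative to Lama4. Unlike the level of Lama2 itself, this direction was seen on tissue replicates 2 and 3 as well, and without them the change was 1.76 and 2.14. Between 3D and 2D the change was -0.38, without overlap (exact permutation p = 0.0286), and -0.25 with the mean of all probe sets (exact permutation p = 0.257).

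Lama5 minus Lama4 lay from -3.32 to -3.20 in 2D and from -3.40 to -3.29 in 3D, and at -2.66, -0.97, 0.50 and -2.21 in tissue. The change of tissue was 1.92 against 2D and 2.01 against 3D (exact permutation p = 0.0286 for each), and 0.82 and 0.91 without tissue replicates 2 and 3. For Nid2 minus Nid1 and for Hspg2 minus Lamc1 all 3 pairs of groups overlapped, with exact permutation p from 0.2 to 1.

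**Figure D3:**
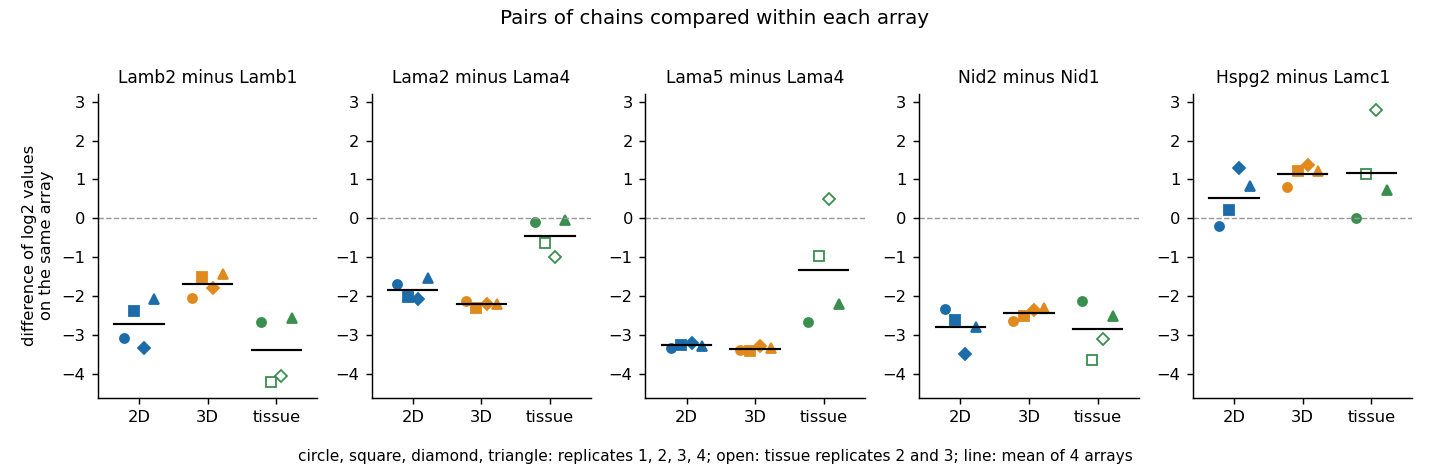
Difference of the log2 levels of 2 genes on the same array (vertical axes) for 5 pairs in the 2D, 3D and tissue groups (horizontal axes). Points are arrays and lines are means of 4. The tissue arrays lie above all culture arrays for Lama2 minus Lama4 and for Lama5 minus Lama4, and the 3D arrays lie above the 2D arrays for Lamb2 minus Lamb1.

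The levels moved with the 3' to 5' difference of the Gapdh control across the tissue arrays, and not all the same way. Lama2, Lama4, Lamb1, Lamb2, Lamc1, Nid1 and Nid2 were lower on tissue replicates 2 and 3 than on replicates 1 and 4, and Lama1, Lama5 and Hspg2 were higher there. For Lama4 and Nid1, tissue replicates 1 and 4 too were below all culture arrays. Among the cultures 2D replicate 3 had the largest control difference (1.27) and the lowest Nid1 (12.58), Nid2 (9.11) and Lama2 (9.38) of its group. Lama4 (11.46), Lamb2 (8.29), Lamc1 (9.84) and Lama1 (4.72) were lowest there too. Lamb1 (11.61) was the highest of its group on this array, and Lama5 (8.26) and Hspg2 (11.13) lay between the others. Across pairs of the 10 genes, the correlation of deviations from the group means ran from -0.96 for Lama2 with Lama5 to 0.99 for Lama2 with Nid1 over 12 arrays, which share these same control differences. The part of RNA quality in these differences was not tested.

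**Figure D4:**
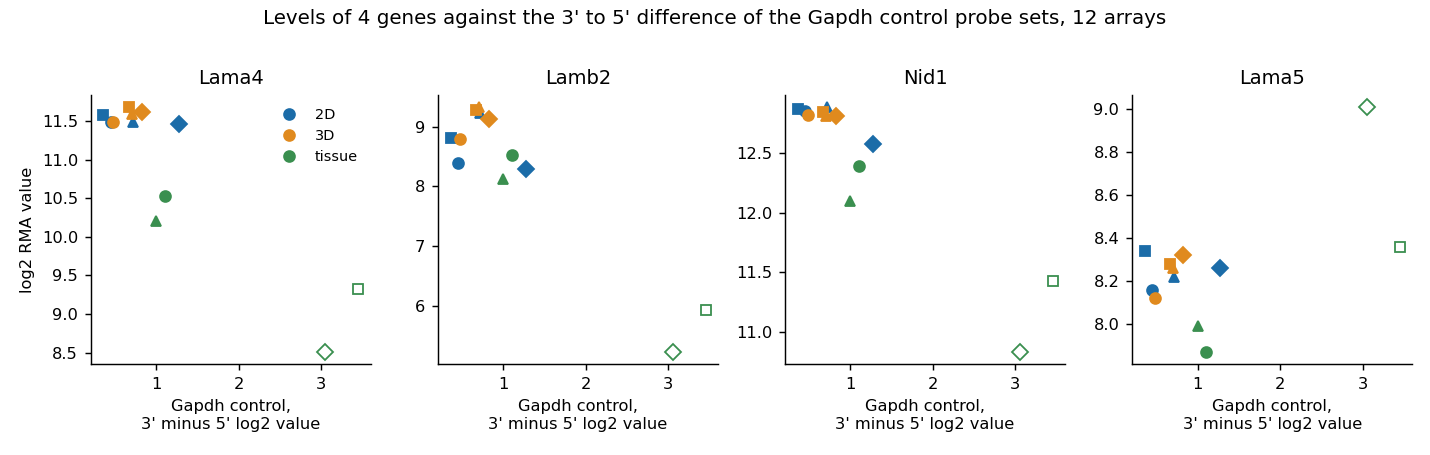
Log2 level of Lama4, Lamb2, Nid1 and Lama5 (vertical axes) against the 3' minus 5' log2 difference of the Gapdh control probe sets (horizontal axes) on 12 arrays. Tissue replicates 2 and 3 (open) stand at 3.45 and 3.05 with low Lama4, Lamb2 and Nid1, and Lama5 is highest on replicate 3.

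Of the 10 genes, 6 had further probe sets, 10 in all. They had the sign of the probe set that stood for the gene in 4 of 10 cases in 3D against 2D, 8 of 10 in tissue against 2D and 7 of 10 in tissue against 3D. In 3D against 2D the further probe sets of Lama5 could not match, as the difference of its first was 0 and has no sign. Of them 0 passed in 3D against 2D, and in each tissue comparison 1 was higher and 5 were lower. A second probe set of Lama4 was 4.48-fold lower in tissue than in 2D (adjusted p = 0.00121 from limma), and a second of Nid1 was 6.30-fold lower (adjusted p = 0.0123). With replicates 2 and 3 of tissue left out these were 4.14-fold (adjusted p = 0.00871) and 3.05-fold (adjusted p = 0.0236). The second probe set of Lama4 read 6.35, 5.48, 6.03 and 5.61 in tissue, near levels at which RMA values can be mostly background. A second probe set of Lama5 was lower in tissue by 0.69 against 2D (log2 difference -0.69, adjusted p = 0.0199) and by 0.54 against 3D (-0.54, adjusted p = 0.0205), where the first showed 0.06. A dim further probe set of Lamb1, from 4.87 to 6.76 on all arrays, was higher in tissue by 0.95 against 2D (adjusted p = 0.0382) and by 1.08 against 3D (adjusted p = 0.0152), against the sign of the other 3, and by 0.47 (adjusted p = 0.0334) and 0.59 (adjusted p = 0.0012) on tissue replicates 1 and 4 alone. Between 3D and 2D a second probe set of Lamb1 showed -0.58 (SE 0.09, adjusted p = 0.119), close to the first, another of Lamb1 showed -0.25 (adjusted p = 0.808), and a dim one of Nid1 showed -1.03 (SE 0.21, adjusted p = 0.176).

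The genes around these 10 were read from 4 lists of 54 genes, of which 48 had a probe set. In 3D against 2D 0 of 48 passed, with a median log2 difference of 0.10. In tissue, 7 were higher and 15 lower than in 2D, where 9.87% and 14.3% of all genes were. Against 3D, 10 were higher and 18 lower, where 15.5% and 20.1% of all genes were. Without tissue replicates 2 and 3 the counts were 9 and 12 against 2D (10.1% and 12.3% of all genes). They were then 15 and 19 against 3D (22.7% and 24.6% of all genes). The same shares of all genes stand beside the counts of each list and of the cell markers below.

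Among the other laminin chains and the netrins, 1 of 5 was higher in tissue than in 2D and 2 of 5 higher than in 3D, and 0 were lower. Lama3, the α chain of skin laminins, was higher than in 2D by 0.79 (SE 0.23, adjusted p = 0.0381 from limma). It read from 5.36 to 5.62 in 2D, from 5.26 to 5.85 in 3D and from 5.82 to 6.89 in tissue. Under a level of 6 RMA values can be mostly background. The partner of Lama3 in skin laminin, Lamb3, stayed under 6 on every array and stood at 0.10 (adjusted p = 0.624). Lamc3, a γ chain, stood at 0.45 (adjusted p = 0.0928). Ntn4, a netrin that caps laminin nets, was higher than in 3D by 1.81 (adjusted p = 0.00318) and did not pass against 2D (0.62, adjusted p = 0.264). In 3D it stood at -1.19 from 2D (adjusted p = 0.292), and Ntn1, a guidance cue for axons, stood at 0.39 (adjusted p = 0.434).

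Of 20 other structural genes of the basement membrane, 6 were higher and 7 lower in tissue than in 2D, and 7 higher and 6 lower than in 3D. Without tissue replicates 2 and 3 these counts were 5 and 5, and 10 and 6. Col18a1, whose product is a vessel-wall collagen and the source of endostatin, read from 12.67 to 13.14 on the culture arrays and 8.97, 7.23, 7.74 and 8.40 in tissue. It was lower in tissue than in 2D by far (log2 difference -4.78, SE 0.34, adjusted p = 8.40e-05), and so was Agrn, the proteoglycan agrin of the nerve-muscle synapse (-2.94, SE 0.37, adjusted p = 0.00132). On tissue replicates 1 and 4 alone these were -4.18 and -2.27 (adjusted p of 2.36e-04 and 0.00134). Fras1, which links epithelium to its basement membrane, read from 4.59 to 5.17 in culture and from 7.69 to 8.08 in tissue (log2 difference from 2D 3.05, SE 0.16, adjusted p = 2.11e-05). Col4a4, a collagen IV chain of mature basement membranes, was higher in tissue than in 2D as well (2.74, SE 0.29, adjusted p = 5.97e-04). It read from 5.51 to 6 in 2D, from 5.39 to 5.76 in 3D and from 7.62 to 9.04 in tissue. Col4a1, a chain of the collagen IV that nidogens bind, was lower in tissue than in 2D by 1.56 (log2 difference -1.56, adjusted p = 0.0212), or -0.86 without tissue replicates 2 and 3 (adjusted p = 0.0413), and stood at -0.43 in 3D against 2D (adjusted p = 0.349). Fbln2, a fibulin that binds laminin and nidogen, stood at -0.85 in 3D against 2D, without overlap of the arrays (adjusted p = 0.218).

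The enzymes and the chaperone that fold and fasten the membrane, 5 of 10 of which were measured, were lower in tissue in 3 of 5 cases against 2D and 4 of 5 against 3D, and 0 were higher. Serpinh1, the collagen chaperone HSP47, was lower than in 2D by 1.32 (log2 difference -1.32, adjusted p = 0.0116), Pxdn, the peroxidase that crosslinks collagen IV, by 1.42 (-1.42, adjusted p = 0.015), and Pomt1, which glycosylates dystroglycan, by 0.93 (-0.93, adjusted p = 0.0262). Pomgnt1 stood at -0.25 in tissue against 2D (adjusted p = 0.232) and at 0.28 in 3D against 2D (adjusted p = 0.409), and Pomt2 stood at 0.17 in 3D against 2D (adjusted p = 0.526).

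Of 18 laminin receptors and their partners, 5 were lower and 0 higher in tissue than in 2D, and 8 were lower and 1 higher than in 3D. With tissue replicates 2 and 3 left out, 4 were lower and 2 higher than in 2D, and 9 lower and 3 higher than in 3D. Dag1, dystroglycan, the receptor of α2 laminins and perlecan, read from 12.25 to 12.34 in 2D, from 12.54 to 12.62 in 3D and from 10.96 to 11.38 in tissue. It was lower in tissue than in 2D (log2 difference -1.18, SE 0.15, adjusted p = 0.00123), and its 3D arrays were above the 2D arrays by 0.26 in the mean (adjusted p = 0.208). Sdc1 (-2.25, adjusted p = 0.00295) and Sdc4 (-1.02, adjusted p = 0.0249), syndecans, and Itga1, the α1 integrin that binds collagen and laminin (-1.38, adjusted p = 0.0187), were lower in tissue than in 2D too. Sdc4 did not pass without tissue replicates 2 and 3 (-1.06, adjusted p = 0.0739). Dmd, dystrophin, which anchors dystroglycan inside the cell, stood at 0.56 in 3D against 2D, without overlap (adjusted p = 0.234).

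**Figure D5:**
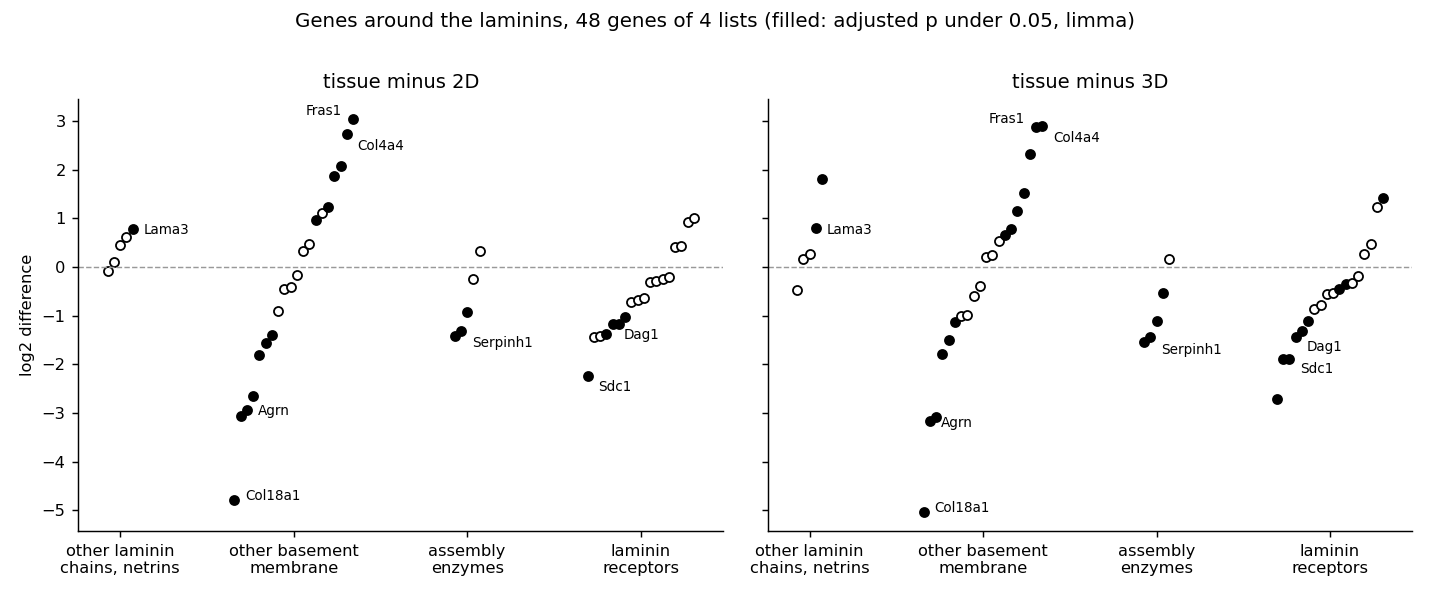
Log2 difference between tissue and either culture (vertical axis) for 48 genes in 4 lists around the laminins, in order of the difference within each list (horizontal axes); filled points have an adjusted p under 0.05 in limma. Col18a1 lies lowest and Fras1 and Col4a4 lie highest in both panels.

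Markers of the cells that a ganglion holds were read beside these genes, and their part in the results was not tested. The sympathetic enzymes Th and Dbh were at 9.44 or above on all 12 arrays, while Chga, another neuron marker, fell to 7.29 in 2D and 7.5 in 3D. The mean of 7 markers of sympathetic neurons ran from 10.5 to 12.2 in 2D, 10.9 to 11.7 in 3D and 11.4 to 13.1 in tissue. Of 7 markers of dividing cells, 7 were lower in tissue than in 2D, with a median log2 difference of -4.14. Of 6 glial markers 3 were lower and 1 higher in tissue than in 2D, and the mean of the 6 ran from 11.4 to 11.9 in 2D, 11.8 to 12 in 3D and 10.4 to 11.9 in tissue. Of 8 endothelial markers 4 were higher and 0 lower in tissue than in 2D, with means from 6.06 to 6.92 in 2D, 6.07 to 6.52 in 3D and 7.01 to 8.06 in tissue. Of 8 markers of mural cells 2 were higher and 3 lower, of 8 of fibroblasts 2 higher and 1 lower, of 7 of sympathetic neurons 2 higher and 0 lower, and of 8 of macrophages 0 higher and 1 lower, each in tissue against 2D. Of 8 skeletal muscle genes 3 were higher, with means from 4.88 to 5.08 in 2D, 4.87 to 4.98 in 3D and 5.06, 8.77, 7.31 and 8.96 on tissue replicates 1 to 4. Against 3D the counts of higher and lower genes were 0 and 7 for dividing cells, 1 and 3 for glia, 6 and 0 for endothelium, 2 and 2 for mural cells, 1 and 1 for fibroblasts, 4 and 0 for neurons, 5 and 2 for macrophages and 5 and 0 for skeletal muscle. Without tissue replicates 2 and 3 the counts in tissue against 2D were 0 and 7 for dividing cells, 2 and 2 for glia, 6 and 0 for endothelium, 2 and 2 for mural cells, 3 and 1 for fibroblasts, 1 and 0 for neurons, 1 and 0 for macrophages and 1 and 0 for skeletal muscle.

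The genes with the most similar pattern over the 12 arrays were found among 13108 genes with a mean log2 level of at least 6. The highest Pearson correlations were 0.997 of Lama4 with Emp2 and 0.996 with Dnttip2, and 0.996 of Nid1 with 1110004F10Rik and 0.996 with Psmd12. Lamb2 was closest to Cfap36 (0.986) and Nme7 (0.986), Nid2 to Zfp868 (0.976) and Laptm4a (0.973), Lama2 to Coa6 (0.974) and Nagk (0.971), and Lamc1 to Egflam (0.972), itself an extracellular matrix gene, and Gopc (0.958). Lama5 was closest to Cdk9 (0.969) and Ell (0.967), Lamb1 to Slc35b3 (0.968) and Mpp6 (0.965), Lama1 to Tfpi (0.95) and Adamts6 (0.938), and Hspg2 to Mex3a (0.940) and Efcab3 (0.937). The points share the control difference of tissue replicates 2 and 3.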

How the data were processed

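RNA of SCG cells and tissue from CD1 mice was hybridised to Affymetrix mouse arrays, 4 in each of 3 groups. The authors made the deposited log2 values with the RMA algorithm in Affymetrix Expression Console (release not given in the sources used here). It corrects background, makes the probe values of the arrays alike in distribution and sums probes to probe sets. Of 45101 probe sets, 64 controls were left out of the tests, 34945 have 1 gene symbol, 932 have several and 9160 have none here. A gene was read from its probe set with the highest mean over 12 arrays. The number of arrays limits the precision, and 0 pairs of arrays were identical.

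Pairs of groups were compared with limma 3.58.1 in R 4.3.3, with p-values adjusted across 45037 probe sets by Benjamini and Hochberg's method, and an adjusted p under 0.05 passed. Pairs of genes were compared by exact permutation tests. The code was tested on simulated data. All 10 genes are named, from each of the 4 lists the 4 genes with the smallest adjusted p in tissue against 2D and the 2 in 3D against 2D, and for each gene the 2 with the highest correlation; Ntn4 against 3D and Col4a1 against 2D were chosen after their values were seen. The genes and lists were chosen with earlier results of these data known. Alternatives were other scalings, a joint model, array weights, a trended prior, no dim probe sets, other probe sets, a replicate block, the methods' t-test and omitting 1 array at a time. Omission of tissue 2 with 3, and of 2D 4 with 3D 1, was added after seeing the data. Some listed genes are not reported here.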

Additional observations from a re-analysis of the deposited data

Results flagged for a closer look

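Nid1 read 12.58 on 2D replicate 3, while the other 3 arrays of the group read 12.86, 12.87 and 12.89, so that it lay far from the rest of a tight group. Of 30 groups of 4 arrays tested, 1 held such an array, and chance alone gives about 1 in 20. The Gapdh control difference of this array, 1.27, was the largest of the cultures. Its part in the low value was not tested.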

How the results depend on the processing

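The calls of Lama4 held in all 21 alternatives of each tissue comparison. In 3D against 2D, 1 of the 10 genes was lower with array weights, by the methods' t-test unadjusted and without 2D 4 and 3D 1, and 1 was higher in the last. In tissue against 2D, 6 were lower in 1 model of 12 arrays, 1 by the methods' t-test adjusted, 4 by it unadjusted, 1 without 2D 4 and 3D 1, and from 1 to 4 with 1 array left out. In tissue against 3D, 1 was higher with array weights and without tissue 2 and 3, 1 was lower by the methods' t-test adjusted and without 2D 4 and 3D 1, and from 1 to 5 with 1 array left out. Of the 48 listed genes, 3 were lower in 3D with array weights, 3 were higher and 5 lower by the unadjusted t-test, and 2 were higher without 2D 4 and 3D 1. In tissue against 2D, 11 were higher with array weights, 4 higher and 7 lower by the adjusted t-test, 9 lower without 2D 4 and 3D 1, and from 8 to 16 lower with 1 array left out.

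Values that turned were those of Lama5 with the probe set of highest SD (-0.69 against 2D and -0.54 against 3D) and against 3D without tissue 2 and 3 (-0.32), of Lama2 against 3D with array weights (0.73) and without tissue 2 and 3 (0.91), and of Nid2 minus Nid1 in tissue against 2D with the probe set of highest SD (1.5). A change of sign between values that did not pass was not counted. In 3D against 2D, Lamb2 minus Lamb1 was 0.84 with the mean of probe sets and 0.71 with that of highest SD, Lama2 minus Lama4 -0.25 and -0.13, Nid2 minus Nid1 0.83 with the mean, and Lama5 minus Lama4 -0.11 with cyclic loess. With the probe set of highest SD, Lama2 minus Lama4 was 1.69 in tissue against 2D and 1.82 against 3D, and Lamb2 minus Lamb1 -0.72 against 3D. Without tissue 2 and 3, Lamb2 minus Lamb1 was 0.11 against 2D and -0.91 against 3D, Lama2 minus Lama4 1.76 and 2.14, Lama5 minus Lama4 0.82 and 0.91, and Nid2 minus Nid1 0.13 against 3D. Pairs were judged by unadjusted exact p, and by size where arrays were left out. The causes were not tested.

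Same-numbered arrays deviated together unevenly, with correlations from -0.07 to 0.41, so the replicate numbers were not taken as pairs. With a replicate block 0 genes passed in 3D against 2D, 3 were lower in tissue than in 2D, Lamc1 among them (adjusted p = 0.0294), and 3 were lower than in 3D, without Hspg2 (adjusted p = 0.0644).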
